A study of Arabidopsis thaliana with 6 samples.

Results

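The transcripts described here come from 46 nuclear genes for proteins of the cytosolic ribosome of *Arabidopsis thaliana*, 32 for the large 60S subunit and 14 for the small 40S subunit. They were chosen by a list of loci, out of 33602 genes counted, and the annotation names a ribosomal protein for each of them. RNA was sequenced from leaves of *cat2-2*, a mutant in the main leaf catalase, the peroxisomal enzyme that removes the hydrogen peroxide made in photorespiration. All 6 libraries carry the same mutation in the Columbia-0 background, and wild-type plants were not analysed here. The high CO2 group holds 3 libraries of plants kept for 3 weeks at 3000 ppm CO2, 120 µmol per m2 and second of light, 75% relative humidity and 21 °C, in days of 16 h light and 8 h dark, where photorespiration is held low. The high light group holds 3 libraries of plants of the same age, moved for 3 h to another chamber. That chamber had 400 ppm CO2, 55% relative humidity, 1200 µmol per m2 and second of light, and likewise 21 °C. Light, CO2, humidity and chamber changed together, and sampling time differed as well (0 h for high CO2, 3 h for high light). The effects of all these cannot be told apart. The labels give shoot as the source and leaf as the tissue. Each library pooled middle-aged leaves of 15 plants, and the set-up was repeated for each of the 3 biological repeats of a group.

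The cytosolic ribosome translates the messenger RNA of nuclear genes. Its 60S subunit joins amino acids and its 40S subunit reads the message, and each subunit takes in 1 copy of most of its proteins. In Arabidopsis nearly every ribosomal protein is made from several gene copies, called paralogs. The genes are known to be expressed together, most strongly in growing tissue, under the target of rapamycin (TOR) kinase pathway, and making ribosomes is one of the largest costs of a growing cell.

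Library totals ranged from 18047295 to 24149149 counts. All 46 genes passed the filter on low counts, as did 18504 genes in all, of which 60.8% were called between the groups (edgeR adjusted p under 0.05), 30.4% risen and 30.4% fallen in high light. Levels are counts scaled to library size (CPM), and changes are log2 fold changes of high light over high CO2. Summed leaf markers, 4 genes of which all 4 fell, were at 48359.2 to 70046.7 CPM in high CO2 and 21708.2 to 31403.4 CPM under high light, while 3 root markers were at 0 in all libraries and 2 meristem markers at 0.0521 CPM or less. Summed vascular and guard cell markers, 2 genes that both fell, were at 203 to 221 and then 129 to 176 CPM, and summed flower markers (2 genes, 1 tested and fallen) at 0.804 to 1.67 and then 0.433 to 0.689 CPM. The groups did not overlap in these 3 sums, and the part of cell types in the ribosomal protein values was not tested. The CPM scale is relative: in a pool of leaves, fewer cells of a type and less RNA per cell cannot be told apart.

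Of the 46 ribosomal protein genes, 1 rose in high light, SAG24, and 0 fell (2.17% called, against 60.8% of all tested genes). The other 45 did not pass the test, although the fitted log2 change of each was below 0. Without SAG24, 2 of 45 genes had an unadjusted p under 0.05 in edgeR, beside 12012 of all 18504 tested genes. DESeq2 called 1 of the 45 fallen and limma-voom called 0. Of all tested genes they called 58% and 60.8% in either direction. SAG24 is a 60S gene, and the 45 others, 31 of the 60S and 14 of the 40S, are described after it.

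SAG24 (AT1G66580) encodes a form of L10, a 60S protein that is added late in assembly and is needed before the subunits can join. It was first described as a senescence-associated gene, and the annotation also lists it as ribosomal protein L10 C. In high CO2 its libraries held 2034, 1881 and 964 counts, which is 96.1, 83.6 and 50.2 CPM. In high light they held 26492, 27375 and 33568 counts, which is 1224.3, 1186.2 and 1542.5 CPM. Every high light library stood far above every high CO2 library, and the log2 fold change was 4.10 ± 0.27 (SE, 95% interval 3.48 to 4.72, edgeR adjusted p = 4.3e-06). By mean CPM SAG24 moved from the 1979th to the 84th most abundant of all genes, and its change was the 654th largest rise among those tested. It rose under every alternative of the processing and without each library in turn, with log2 changes from 3.82 to 4.32.

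The main L10 gene, SAC52 (AT1G14320), did not move with its paralog. SAC52 was found as a suppressor of the dwarf mutant acaulis5, and its protein is a known substrate of the receptor kinase NIK1 in antiviral signalling. Its level was 368, 282 and 157 CPM in high CO2 and 281, 208 and 206 CPM under high light, so that the groups overlapped. The log2 change was -0.22 ± 0.29 (95% interval -0.87 to 0.44, edgeR adjusted p = 0.534). A further L10 gene outside the 46, RPL10B (AT1G26910), was named here after its values were seen. It stayed low, at 7.85, 6.63 and 2.97 CPM in high CO2 and 9.15, 7.24 and 8.64 CPM under high light (log2 change 0.51 ± 0.31, edgeR adjusted p = 0.176), and passed the test without high CO2 replicate 1 (0.81, adjusted p = 0.049).

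The makeup of L10 transcripts was set apart between the groups. SAG24 held 22.2 ± 1.76% of the counts of the 3 L10 genes in high CO2 and 84.4 ± 3.46% under high light (SD, n = 3 each). The share of SAC52 was 76.1 ± 1.66% and 15.0 ± 3.40%. Neither share overlapped between groups, and a two-sided exact permutation test over libraries gave p = 0.1, which is the lowest value 3 against 3 can reach. Summed over the 3 genes, L10 transcripts were at 352 ± 132 CPM in high CO2 and 1557.8 ± 182 CPM under high light. The coding sequences of SAG24 and SAC52 are 88.9% identical, below the 95% at which reads of copies were taken as hard to separate.

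**Figure D1:**
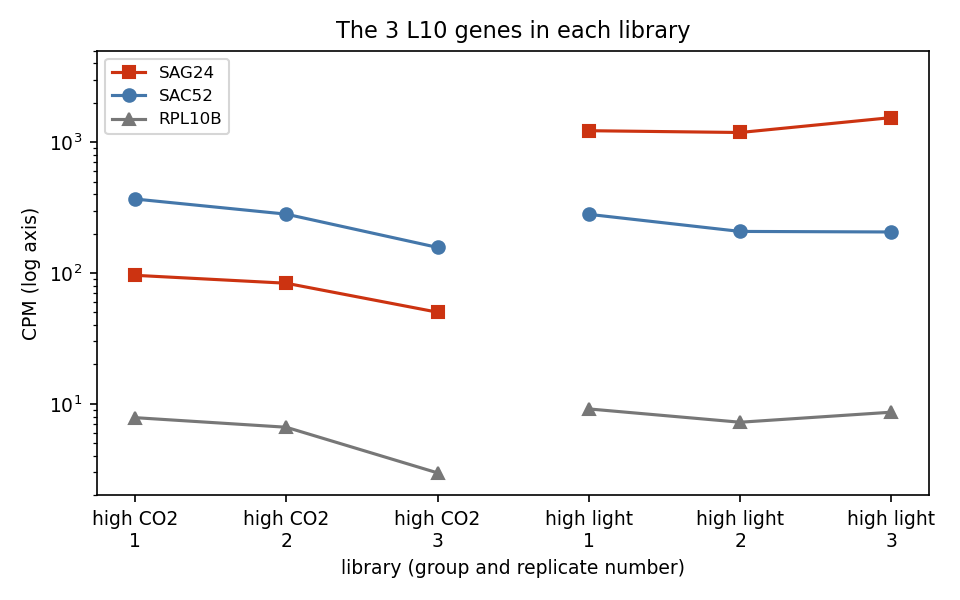
CPM of the 3 L10 genes in each library, on a log axis. Lines join the libraries of a group for 1 gene and carry no order. SAG24 sits at 50.2 to 96.1 CPM in high CO2, below SAC52, and at 1186.2 to 1542.5 CPM in high light, above it.

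Promoters of plant ribosomal protein genes are known for the telo-box, here AAACCCTA, and for site II elements, here TGGGCC and its variant TGGGCT. Both strands of the 250 bases upstream of each annotated gene start were searched in the TAIR10.1 genome. A TGGGCC followed by CA also reads as a site II element on the other strand, where both matches overlap. The counts were made on TAIR10 and carry no coordinates. A telo-box was found in 11 of the 46 windows (23.9%) and in 4.44% of 26711 protein-coding genes. TGGGCC was found in 28 (60.9%, against 13.9%), TGGGCT in 23 (50%, against 12.5%), and either of them in 32 (69.6%, against 19.4%). Over the 18136 tested genes with a window, 3.52% held a telo-box and 23.1% either site II form. Over 181 other genes for cytosolic ribosomal proteins the shares were 20.4% and 68%, close to those of the 46. The 150 bases before the start are printed for the L10 pair, for AT5G20290 as the most abundant of the other genes per length, for RPL24A as the gene with the lowest log2 change, and for AT5G15200 (S4 family) as a window with both kinds of element. Matches are in capitals, each window is written 5′ to 3′ on the strand of its gene, and none of these bases lies in an exon of another gene.
SAG24, chr1:24838940-24839089, plus strand: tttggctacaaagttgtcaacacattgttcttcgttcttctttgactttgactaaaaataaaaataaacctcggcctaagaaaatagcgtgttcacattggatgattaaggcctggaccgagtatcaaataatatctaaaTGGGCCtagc
SAC52, chr1:4887964-4888113, plus strand: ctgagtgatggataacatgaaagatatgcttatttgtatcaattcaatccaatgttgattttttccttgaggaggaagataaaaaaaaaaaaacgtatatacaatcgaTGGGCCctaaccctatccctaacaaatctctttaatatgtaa
AT5G20290, chr5:6853107-6853256, minus strand: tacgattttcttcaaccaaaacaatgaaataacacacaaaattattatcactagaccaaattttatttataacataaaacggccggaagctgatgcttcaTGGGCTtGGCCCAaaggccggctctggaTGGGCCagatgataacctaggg
RPL24A, chr2:15352014-15352163, minus strand: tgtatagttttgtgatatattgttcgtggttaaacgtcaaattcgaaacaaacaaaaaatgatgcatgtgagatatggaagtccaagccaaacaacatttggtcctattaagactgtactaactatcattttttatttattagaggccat
AT5G15200, chr5:4936430-4936579, minus strand: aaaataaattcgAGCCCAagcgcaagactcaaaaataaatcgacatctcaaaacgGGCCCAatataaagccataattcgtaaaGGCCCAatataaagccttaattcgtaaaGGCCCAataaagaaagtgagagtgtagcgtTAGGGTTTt

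Both L10 genes hold a TGGGCC and no telo-box match, at 10 bases before the start in SAG24 and 42 in SAC52, and only SAG24 of the pair rose. AT5G20290 holds TGGGCC at 43 and 22 bases and TGGGCT at 50, and RPL24A holds no match in its 250 bases. AT5G15200 holds TGGGCC at 95, 67 and 39 bases, TGGGCT at 138 and a telo-box at 9. Among the 45 genes other than SAG24 the median log2 change was -0.43 for the 11 with a telo-box and -0.38 for the 34 without, and -0.39 for the 31 with a site II element and -0.43 for the 14 without. These are descriptions of letters in a window and not of binding.

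The remaining 45 genes moved as a block, and the movement was larger among the high CO2 libraries than between the groups. Their median log2 change was -0.39, a fold of 0.762, against -0.06 over all tested genes. Single genes ranged from -0.76 to -0.09 with standard errors of 0.21 to 0.35, and their adjusted p-values from 0.059 to 0.813. The median for the 60S genes, SAG24 included, was -0.39 and for the 40S genes -0.36. All 45 were below 0 with each of the scalings used, where upper-quartile factors gave a median of -0.66 against -0.33 for all genes. With limma-voom and with the replicate number as a block 44 were below 0. A change of this size was not resolved: the 95% intervals of the 45 genes reached from -1.48 to 0.63, which takes in a fold of 0.358 at one end and 1.54 at the other. The interval of 29 genes reached below -1, and 0 reached above 1.

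**Figure D2:**
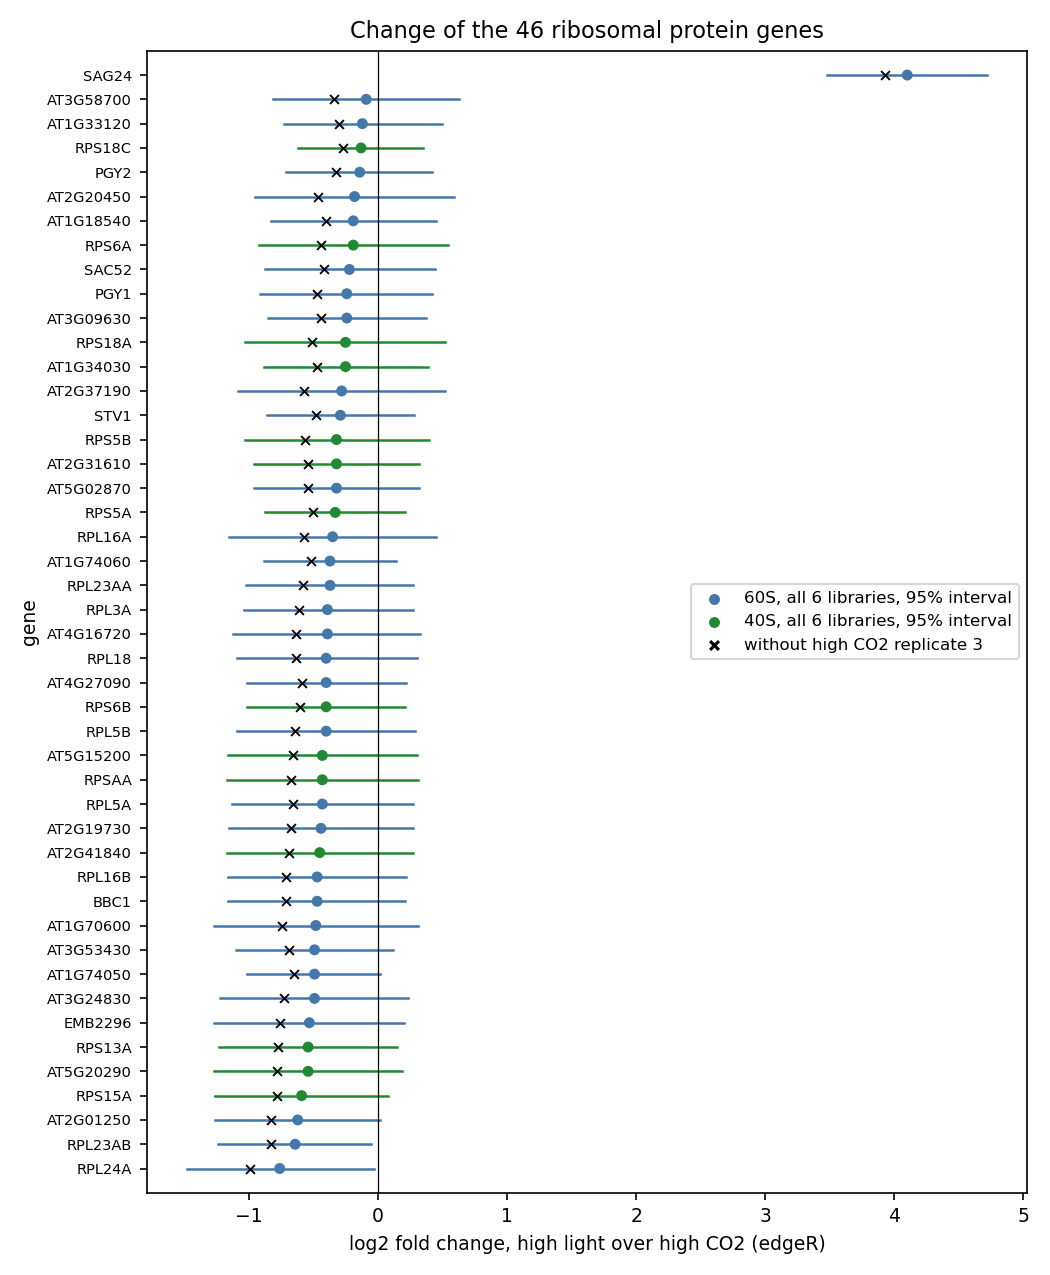
Log2 fold change of each of the 46 genes, high light over high CO2. Circles are the edgeR estimates from all 6 libraries with their 95% intervals, blue for 60S and green for 40S, and crosses are the estimates without high CO2 replicate 3. SAG24 stands at 4.10, and the 45 others lie between -0.76 and -0.09, each with its cross further to the left.

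High CO2 replicate 3 was the lowest high CO2 library for all 46 genes and the lowest of all 6 libraries for 39 of the 45. High CO2 replicate 1 was the highest of all 6 for 45 of 45. The ratio of replicate 3 to the mean of replicates 1 and 2 had a median of 0.458 over the 46 genes, from 0.347 to 0.613, while over all tested genes it was 0.998. The genes thus spread by a median coefficient of variation of 41.4% in high CO2, against 14.2% over all tested genes, and by 17.4% in high light, against 13.4%. Replicate 1 was also the highest high light library for all 45.

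**Figure D3:**
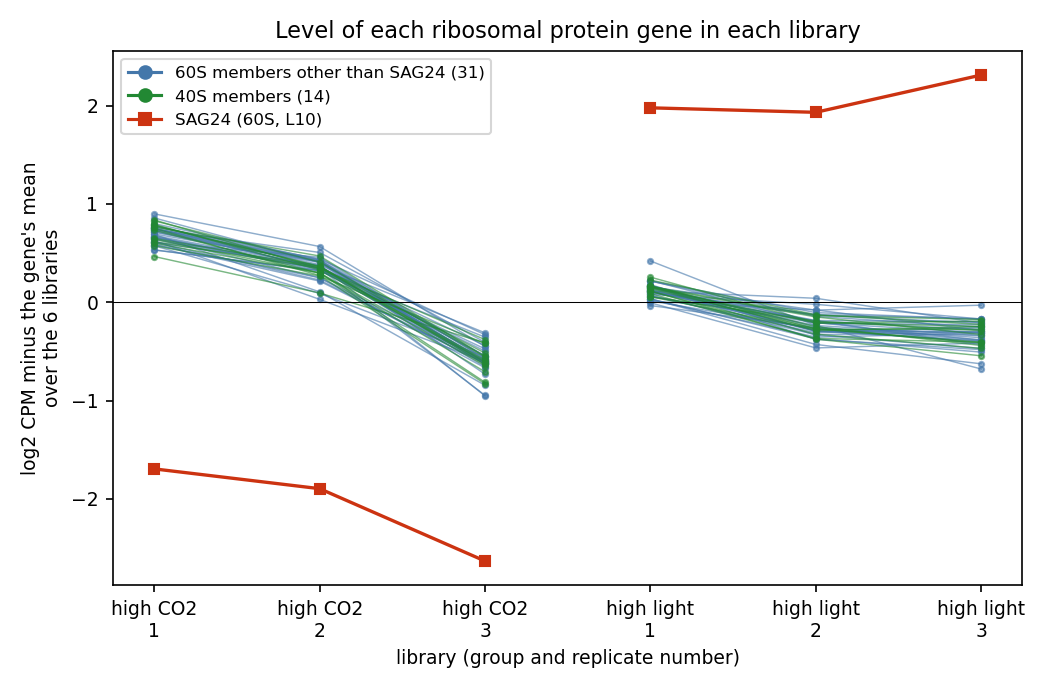
Log2 CPM of each gene in each library, as the difference from the gene's own mean over the 6 libraries. Thin lines are the 31 60S genes (blue) and 14 40S genes (green) other than SAG24, the thick line is SAG24, and the order along a line carries no meaning. The 45 genes form a narrow band with a median of 0.696, 0.348 and -0.598 in high CO2 replicates 1, 2 and 3 and of 0.119, -0.246 and -0.311 in high light.

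Without high CO2 replicate 3, an alternative planned for every library, 37 of the 46 genes fell, 25 of the 60S and 12 of the 40S, beside 28.5% of all genes fallen in that fit. The median log2 change was then -0.60, and the 45 genes ranged from -0.99 to -0.27 (edgeR). Both other high CO2 libraries lay above all high light libraries for 41 of the 45, where 40.8% of all tested genes did the same. With replicate 3 of both groups removed (a setting added after seeing the data), 27 genes fell beside 26.1% of all genes, and all 27 were among the 37. Without high CO2 replicate 1 the median was -0.07, with 31 genes below 0 and 14 above. Without each of the other libraries 0 fell. With upper-quartile factors, which move the median of all genes, 8 fell beside 42.6% of all genes. With all 6 libraries and the replicate number as a block, 6 fell beside 32.8% of all genes. Nothing in the labels sets high CO2 replicate 3 apart. Its total of 18047295 counts was the lowest of the 6. Whether depth had a part in its low ribosomal protein levels was not tested.

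Among the 60S genes other than SAG24, the highest levels per length were those of AT4G27090 (L14), at a mean of 202 CPM per kb over the 6 libraries, and EMB2296 (L2 family), at 200. The L2 protein lies near the site where peptide bonds form, and EMB2296 is named for its embryo-defective mutant. EMB2296 was at 384, 298 and 151 CPM in high CO2 and 248, 170 and 158 CPM under high light (log2 change -0.53 ± 0.32, edgeR adjusted p = 0.183). AT4G27090 was at 224, 177 and 102 CPM in high CO2 and at 154, 116 and 112 CPM under high light (-0.40 ± 0.27, edgeR adjusted p = 0.23). In both genes the groups overlapped only through high CO2 replicate 3. SAG24 had the highest level of all, at 606 CPM per kb.

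The 60S genes nearest to no change were AT3G58700 (L5P family), a protein of the kind that binds 5S ribosomal RNA, and AT1G33120. AT3G58700 was at 33.6, 22.4 and 11.6 CPM in high CO2 and 23.2, 19.7 and 20.4 CPM under high light (log2 change -0.09 ± 0.32, edgeR adjusted p = 0.813). AT1G33120 was at 60.1, 39.7 and 25.6 CPM in high CO2 and 42.1, 40 and 33.6 CPM under high light (-0.12 ± 0.27, edgeR adjusted p = 0.727). The libraries of both groups interleaved. Counts of AT1G33120 and its neighbour PGY2, a gene known from leaf polarity mutants, are uncertain, since their coding sequences are 99.1% identical and the treatment of shared reads is not given in the sources used here.

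At the other end stood RPL24A (AT2G36620), whose L24 protein sits between the subunits, and RPL23AB (AT3G55280), whose L23a protein lies at the exit of the peptide tunnel. Both were chosen after their values were seen, as the genes closest to a call. RPL24A was at 124, 98.5 and 48.7 CPM in high CO2 and 68.2, 49.4 and 43.1 CPM under high light (log2 change -0.76 ± 0.32, edgeR adjusted p = 0.0665), and it was the 1 gene that DESeq2 called (adjusted p = 0.0423). RPL23AB was at 67.4, 53.5 and 31.4 CPM and then 39.3, 28.6 and 29.6 CPM (-0.64 ± 0.26, edgeR adjusted p = 0.059). Their 95% intervals ended just below 0, at -0.03 and -0.05.

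Of the 14 genes for 40S proteins, 0 were called, against 60.8% of all tested genes. An unadjusted p under 0.05 in edgeR was found for 0 of the 14, beside 12012 of all 18504 tested genes. Without high CO2 replicate 3, 12 of the 14 fell, beside 28.5% of all genes in that fit. AT5G20290 (S8e family) had the highest level per length, 248 CPM per kb, with 462, 346 and 177 CPM in high CO2 and 281, 208 and 188 CPM under high light (log2 change -0.54 ± 0.32, edgeR adjusted p = 0.173). RPSAA (AT1G72370), for the SA protein on the outer face of the 40S subunit, came next at 173 CPM per kb. It was at 362, 271 and 136 CPM in high CO2 and 237, 175 and 158 CPM under high light (-0.43 ± 0.32, edgeR adjusted p = 0.274). Here too high CO2 replicate 3 alone lay under the high light libraries.

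The 40S genes with the smallest changes were RPS18C and RPS6A. S18 forms part of the head of the 40S subunit. RPS18C (AT4G09800) was at 92.6, 71.6 and 50.4 CPM in high CO2 and 75.0, 61.1 and 59.4 CPM under high light (log2 change -0.13 ± 0.21, edgeR adjusted p = 0.606). RPS6A (AT4G31700) encodes S6, the protein that S6 kinases phosphorylate downstream of TOR. It was at 233, 184 and 85.1 CPM and then 175, 137 and 128 CPM (-0.19 ± 0.32, edgeR adjusted p = 0.626). These 2 genes were also the 40S genes that did not fall without high CO2 replicate 3.

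The balance between the subunits differed little among libraries. Summed CPM of the 60S genes other than SAG24 over that of the 40S genes was 1.98, 2.05 and 2.05 in high CO2 and 1.99, 2.05 and 2.07 under high light. The means were 2.03 ± 0.0384 and 2.04 ± 0.0401 (exact permutation p = 0.5, two-sided), while the summed level of the 45 genes itself went from 3732.0 to 9050.7 CPM. Across the 6 libraries the 45 genes had a median pairwise Pearson correlation of 0.971 over 990 pairs, lowest 0.718, a description of points that share libraries and depth. The median standard deviation of a gene between libraries was 0.504 on the log2 scale, and 0.0951 once the median movement of the 45 genes in each library was taken away.

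The share of all counts held by the 46 genes was 0.874, 0.668 and 0.402% in high CO2 and 0.716, 0.626 and 0.596% under high light. The means were 0.648 ± 0.237% and 0.646 ± 0.0625% (exact permutation p = 1). Without SAG24 (likewise added after seeing the data) they were 0.641 ± 0.235% and 0.512 ± 0.0779% (p = 0.5, exact permutation test). SAG24 alone rose from 0.00744 ± 0.00195% to 0.134 ± 0.0183% of counts, and in high light it was the largest single part of the 46 genes. The groups overlapped in the shares of the 46 and of the 45 genes.

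**Figure D4:**
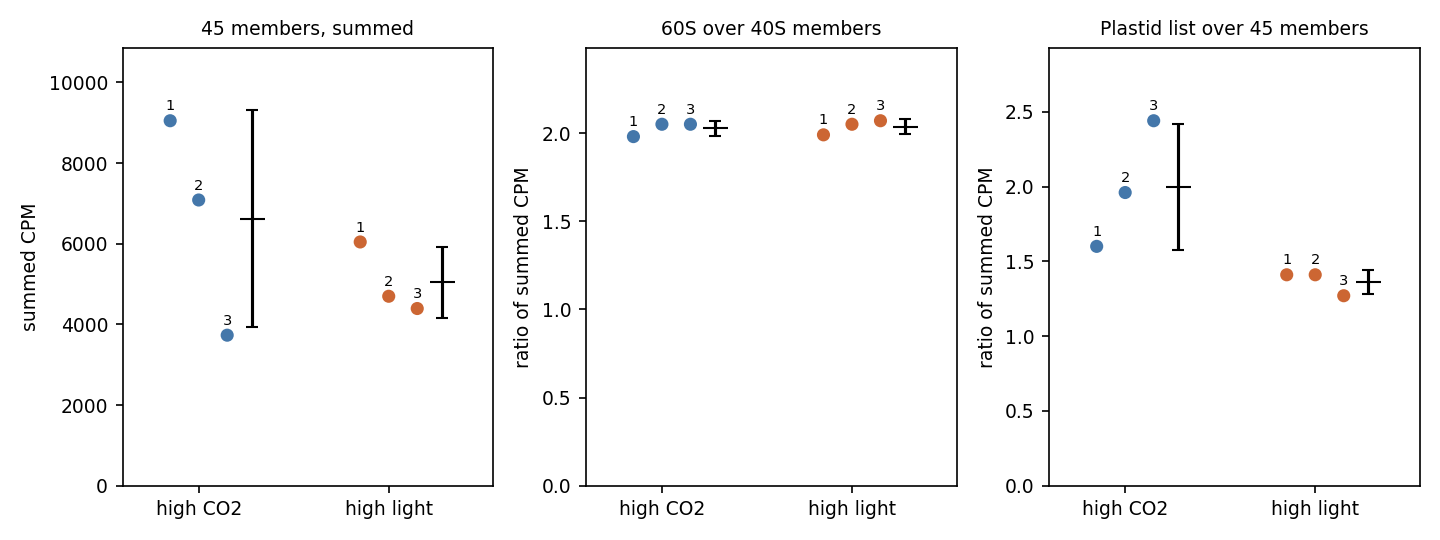
Summed CPM of the 45 genes other than SAG24 (left), the ratio of summed CPM of 60S over 40S genes without SAG24 (middle) and the ratio of the plastid ribosomal protein list over the 45 genes (right). Points are libraries with their replicate number, and bars are the mean and SD of 3 libraries. The sum spreads widely in high CO2, the middle ratio stays between 1.98 and 2.07, and the right ratio is lower in all high light libraries.

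Among the 46 genes, shares of paralogs of the same family moved little outside L10. Of the 46 genes, 29 fell into 13 families with at least 1 paralog in the set. The share of the counts per kb of these paralogs was computed for 19 genes (1 of each pair, all of each trio). Paralogs outside the 46 were left out, so these are not shares of whole families. The groups did not overlap for 10 shares, but the smallest exact permutation p was 0.1 and the smallest adjusted p 0.19. Outside L10 the largest move was that of RPL24A against STV1, its paralog known for translation reinitiation on auxin response factor messages. RPL24A held 38.6, 36.6 and 33.4% in high CO2 and 31.6, 29.3 and 27.5% under high light, a difference of -6.72 points. Of the 19 shares, 17 moved by less than 5 points. AT1G18540, AT1G74060 and RPL16B have 40.05, 35.69 and 10.59% of their exon bases overlapped by opposite-strand genes, so that their values depend on a strand setting that is not given.

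The remaining genes for cytosolic ribosomal proteins, 165 tested of a list of 181, had a similar median and spread. In this list 4 rose and 6 fell (6.06% called, against 60.8% of all tested genes). The median log2 change was -0.32 and the replicate 3 ratio 0.468 in high CO2. Without high CO2 replicate 3, 5 rose and 109 fell, beside 28.5% of all genes fallen in that fit. Without high CO2 replicate 1, 8 rose, beside 5349 of all genes in that fit. The falls numbered 0 without high CO2 replicate 1 or 2 and without high light replicate 2 or 3. The largest rise was that of RPSAb (AT3G04770), a second SA gene, at 3.83, 3.42 and 0.885 CPM in high CO2 and 6.56, 8.06 and 8.64 CPM under high light (log2 change 1.5 ± 0.41, edgeR adjusted p = 0.0115). RPL18AA (AT1G29970) rose from 16.0, 17.3 and 17.1 CPM to 40.2, 36.8 and 45 CPM (1.27 ± 0.12, edgeR adjusted p = 4.0e-05), but 35.34% of its exon bases also belong to another gene on the same strand, so its counts are uncertain. The high CO2 libraries of RPL18AA lay close together, unlike those of RPSAb. The largest falls were those of AT1G07070 (L35Ae family, -0.98 ± 0.31, edgeR adjusted p = 0.0225) and AT2G40205 (L41 family, -0.70 ± 0.27, edgeR adjusted p = 0.049). AT1G07070 went from 16.7, 11.6 and 6.41 CPM to 6.56, 5.98 and 5.05 CPM, and AT2G40205 from 17.1, 15.6 and 8.33 CPM to 10.3, 8.06 and 6.98 CPM. Both calls were lost without high CO2 replicate 1 or 2 and without high light replicate 2 or 3, with edgeR adjusted p of 0.0554 to 0.0787 for AT1G07070 and 0.124 to 0.17 for AT2G40205. For AT2G40205 the call was also lost with DESeq2 size factors, limma-voom and no filter, and 57.88% of its exon bases overlap a gene on the opposite strand.

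In the main fit, the lists of genes that build or use the ribosome had medians above 0. Of 20 ribosome biogenesis genes 7 rose, a share near the 30.4% of all tested genes, and 0 fell, with a median log2 change of 0.49, while their replicate 3 ratio in high CO2 was 0.506. Their 3 high light libraries lay close together, at 906, 916 and 926 summed CPM, above 662, 569 and 324 in high CO2. FZF (AT2G24500), named after its values were seen, alone had a mean of 22.1 CPM in high CO2 and 234 CPM under high light, beside 518 and 916 CPM for the list. Of 25 translation factor genes 3 rose and 1 fell (16% called, against 60.8% of all tested genes). Their median was 0.06, which turned to -0.21 with upper-quartile factors. Biogenesis genes risen numbered 11 without high CO2 replicate 1 and 4 without high light replicate 2 or 3. Of all genes, 5349, 5278 and 5085 rose in these 3 fits, and 5631 in the main fit. Translation factors fallen numbered 5 of 25 without high CO2 replicate 3, beside 28.5% of all genes.

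The largest rises among the translation factors were those of AT5G12110, for an elongation factor 1-beta, and EIF4A-2 (AT1G54270), for the helicase that unwinds the start of a message. AT5G12110 was at 33.1, 30.0 and 23.2 CPM in high CO2 and at 77.9, 98.8 and 73.9 CPM under high light (log2 change 1.54 ± 0.18, edgeR adjusted p = 1.0e-04), with 65.43% of its exon bases overlapped from the opposite strand. EIF4A-2 was at 127, 123 and 96.5 CPM and then 240, 228 and 262 CPM (1.07 ± 0.15, edgeR adjusted p = 3.7e-04). The gene that fell was EIF4G (AT3G60240), for the scaffold of the same cap-binding complex. It was at 117, 126 and 136 CPM in high CO2 and at 61.6, 76.4 and 73.8 CPM under high light (-0.84 ± 0.14, edgeR adjusted p = 7.7e-04). In each of these 3 genes the groups did not overlap, as in 67.2% of all tested genes.

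TOR is the kinase that couples nutrients to ribosome production, and 8 genes of its complex and regulators were listed. Of these 2 rose and 1 fell (37.5% called, against 60.8% of all tested genes). The S6 kinase gene S6K2 (AT3G08720) rose most, from 10.6, 12.8 and 12 CPM to 62.0, 54.6 and 66.9 CPM (log2 change 2.37 ± 0.14, edgeR adjusted p = 2.0e-06). TCP20 (AT3G27010), for a transcription factor known to bind site II elements, rose from 6.81, 6.18 and 5.99 CPM to 18.9, 13 and 21.0 CPM (1.48 ± 0.19, edgeR adjusted p = 2.3e-04). The high CO2 libraries of each of these genes lay close together. LST8-1 (AT3G18140), for a subunit of the TOR complex, was at 47.8, 56.3 and 66.7 CPM and then 41.7, 40.4 and 44.8 CPM, and fell by 0.43 ± 0.14 on the log2 scale (edgeR adjusted p = 0.0294). Its call was lost without high CO2 replicate 2 or 3 and without high light replicate 1 or 2 (adjusted p of 0.075 to 0.138), where the log2 change was -0.24 without high CO2 replicate 3, and with DESeq2, DESeq2 size factors and library totals. The other 5 genes did not pass the edgeR test, and the log2 change of each was above 0 but below 0 with upper-quartile factors. TOR itself was at 37.8, 42.4 and 50.7 CPM in high CO2 and 36.8, 55.2 and 51.8 CPM under high light (log2 change 0.14 ± 0.18, edgeR adjusted p = 0.534). Of its partners, RAPTOR1 was at 57.3, 61.1 and 69.3 and then 63.7, 73.7 and 76.7 CPM (0.19 ± 0.13, edgeR adjusted p = 0.239), and RAPTOR2 at 13, 13.7 and 14.7 and then 13.8, 19.6 and 15.1 CPM (0.23 ± 0.16, edgeR adjusted p = 0.243). The groups overlapped in these 3 genes and in GCN2, for the kinase that senses uncharged transfer RNA. GCN2 was at 19.9, 21.3 and 27.5 CPM and then 18.1, 25.7 and 27.5 CPM (0.05 ± 0.19, edgeR adjusted p = 0.819). The S6 kinase gene listed as PK1 was at 95.9, 93.3 and 78.5 CPM and then 98.9, 115 and 104 CPM, without overlap (0.25 ± 0.13, edgeR adjusted p = 0.138).

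Nuclear genes for plastid ribosomal proteins, which serve the separate ribosome of the chloroplast, fell in 31 of 33 cases, beside 30.4% of all tested genes. Their median log2 change was -0.83. Without high CO2 replicates 1 and 2 and high light replicates 2 and 3, each left out alone, 18, 17, 18 and 17 fell. Of all genes, 4681, 4274, 4968 and 4740 fell in these fits, and 5616 in the main fit. Their summed CPM over that of the 45 cytosolic genes was 1.6, 1.96 and 2.44 in high CO2 and 1.41, 1.41 and 1.27 under high light. The groups did not overlap (means 2.00 ± 0.422 and 1.36 ± 0.0822, exact permutation p = 0.1, the smallest possible). Markers of dividing cells, which are rich in ribosomes, had 3 of 6 genes fallen, beside 30.4% of all tested genes, and 1 of 6 with DESeq2 or without high CO2 replicate 1. Within each group their summed level and that of the plastid list both ranked the libraries as the 45 genes did. Singly, high CO2 replicate 3 was the lowest high CO2 library for 4 of the 6 dividing cell genes. Replicate 1 was the highest high light library for 4 of the 6. Not every list ranked this way: summed leaf markers were highest in high CO2 replicate 2, and summed biogenesis genes in high light replicate 3. The summed dividing cell level was 25.4, 20.5 and 15.2 CPM in high CO2 and 14, 11.9 and 10.2 CPM under high light. Their part in the ribosomal protein values was not tested.

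**Figure D5:**
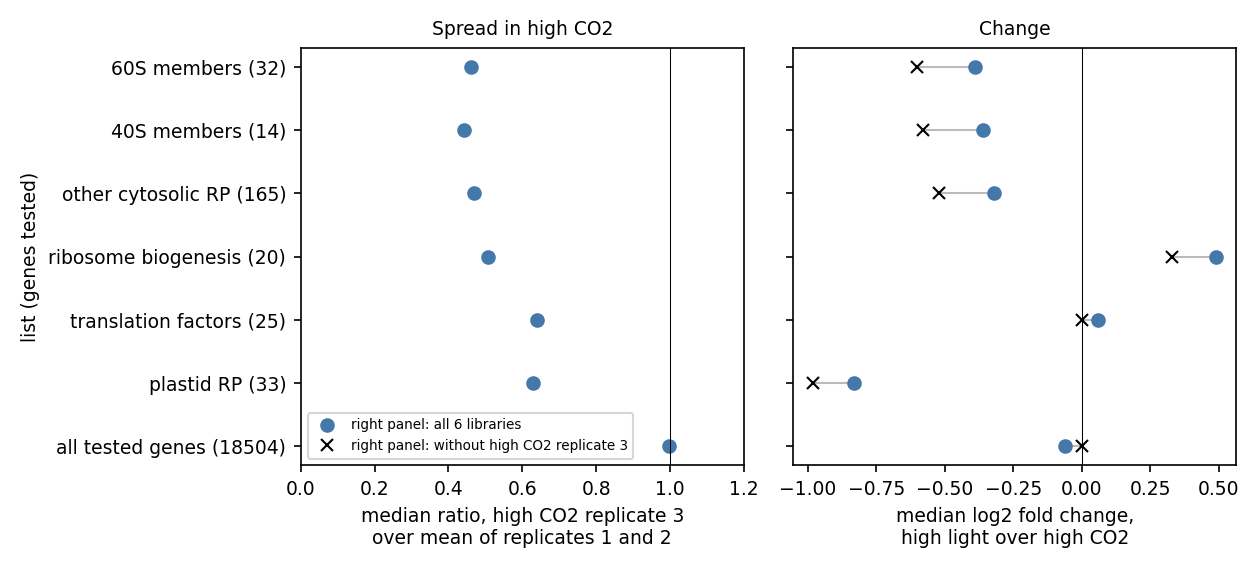
Left, the median over each list of the ratio of high CO2 replicate 3 to the mean of replicates 1 and 2. Right, the median log2 fold change, high light over high CO2, with all 6 libraries (circles) and without high CO2 replicate 3 (crosses). Both subunits and the other cytosolic genes sit at a ratio of 0.443 to 0.468, and the ribosome biogenesis list has medians of 0.49 and 0.33.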

How the data were processed

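Leaf RNA went through TRIzol and RNeasy extraction into TruSeq Stranded mRNA libraries, per the labels' protocols. The submitters' processing notes name Trim Galore 0.3.3 for trimming, TopHat2 2.1.0, the TAIR10 build, and featureCounts (Subread 1.4.6) for counting; strand and multi-mapping settings are not stated there. The authors deposited raw counts per gene in 1 table, not normalized; 2 leftover header lines were left out. Groups came from the sample titles.

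Counts were tested as deposited with edgeR 4.0.16 in R 4.3.3 (filterByExpr at a minimum of 10 counts, TMM factors of 0.932 to 1.07, robust quasi-likelihood fit, Benjamini-Hochberg over 18504 genes, called under 0.05). DESeq2 1.42.0 and limma 3.58.1 (voom) were alternatives, beside other scalings, no filter, a replicate block and each library left out. The fit was tested on simulated data. Standard errors come from the fold change and its F statistic. Tests of single values were exact permutations over the 6 libraries. Copies were compared with BLAST 2.17.0. Sequences and names came from RefSeq TAIR10.1. The alternatives are in the closing section.

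The 46 genes and all lists were chosen with earlier results of these data known. Values per library are given for the 4 largest rises and 4 largest falls among called genes of each subunit, the 2 highest levels per length, the 2 smallest changes, families with opposite calls (there were 0), the 2 largest rises and 2 largest falls among other ribosomal protein and translation factor genes, and all TOR genes.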

Additional observations from a re-analysis of the deposited data

How the results depend on the processing

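SAG24 rose under all alternatives, and 0 called genes among the 46 changed direction. Leaving out 1 library at a time, fallen genes ranged from 0 to 37 of the 46 (60S 0 to 25, 40S 0 to 12), the median from -0.60 to -0.07, and fallen genes of the other lists from 0 to 109 (other cytosolic), 17 to 33 (plastid), 1 to 5 (translation factors) and 0 to 1 (biogenesis), with 3 to 8 risen among other cytosolic and 4 to 11 among biogenesis genes. The cause was not tested. Without replicate 3 of both groups, 27 of the 46 fell (60S 21, 40S 6), 63 other cytosolic, 4 translation factor and 1 biogenesis genes. With upper-quartile factors 8 fell (60S 6, 40S 2; 42.6% of all genes), 32 other cytosolic genes fell and 2 rose, 2 translation factors fell and 4 biogenesis genes rose. DESeq2 called 1 gene fallen, a 60S gene. Other cytosolic genes fallen numbered 3 with DESeq2 size factors and 2 with limma-voom. The difference in the share of counts, -0.00207 points, turned to 0.111 and 0.00768 without high CO2 replicates 1 and 2. It turned to 0.00771 and 0.0231 without high light replicates 2 and 3. With 1 library left out at a time it was lowest without high CO2 replicate 3, at -0.125. Without the 100 most counted other genes it was lower still, at -0.188 (exact permutation p = 0.6). The SAG24 share of the L10 pair moved by 60.2 to 63.4 points, and 10 to 12 paralog shares did not overlap.

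Whether replicate numbers pair the samples across the groups was not settled. Deviations from the group means correlated at 0.2186, -0.0207 and 0.4096 for same-numbered libraries. For libraries of different numbers they correlated at -0.4134 to 0.2351. The main fit used no pairing. With the replicate block 6 of the 46 fell (60S 5, 40S 1, beside 32.8% of all genes), 27 other cytosolic and 2 translation factor genes fell. P-values measure the spread between pooled biological repeats. With 3 libraries a group, and 1 of them far from the others, a fall of the 45 genes was not resolved.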

Other observations

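Among the 20 ribosome biogenesis genes the largest rise was that of FZF (AT2G24500), which the annotation also lists as REI1-like 2, a cytosolic factor known from yeast and Arabidopsis for late 60S maturation. It was named after its values were seen. FZF was at 26.5, 24 and 15.9 CPM at high CO2, and at 211, 258 and 233 CPM under high light (log2 change 3.40 ± 0.21, edgeR adjusted p = 3.1e-06). RID2 (AT5G57280), for a methyltransferase-like protein needed in pre-ribosomal RNA processing, rose from 7.61, 7.43 and 3.85 CPM to 14.7, 15.8 and 16.8 CPM (1.32 ± 0.24, edgeR adjusted p = 0.0014). In both genes all high light libraries lay above all high CO2 libraries, and high CO2 replicate 3 was the lowest of the 6.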
